A study of Mus musculus with 9 samples.

Results

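Glutamate and GABA are the main excitatory and inhibitory transmitters of the brain, and the genes of their receptors were measured here in 2 kinds of mouse brain tumour cells and in astroglia. Members were chosen by symbol alone, as the genes of the AMPA, kainate, delta and NMDA receptor subunits, the metabotropic glutamate receptors, and the GABA-A and GABA-B receptor subunits. Of 47 such genes in the RefSeq annotation, 28 had a row among the 14771 named genes of the deposited table. Among them were 4 of 4 AMPA, 4 of 5 kainate, 6 of 7 NMDA, 2 of 8 metabotropic, 8 of 19 GABA-A and 2 of 2 GABA-B genes. Genes not analysed here include Grik5, Grin2b, Grm2, Grm4, Grm6, Grm7, Grm8, Gabra3, Gabra4, Gabra5, Gabra6, Gabrb2, Gabrg3, Gabrp and Gabrr3, so neither receptor system is covered whole.

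The 9 libraries formed 3 groups of 3. OB libraries came from olfactory bulb tumour cells and BS libraries from brainstem tumour cells, both of a mixed 129 and C57BL/6 background with Foxr2 overexpression and the p53 cko allele. AG libraries came from astroglia of the C57BL/6 strain that carried p53 DN and an Nf1 shRNA. No group without a p53 lesion was among them, and tissue of origin, strain, Foxr2, the kind of p53 lesion and the Nf1 shRNA differ together between tumour cells and AG, so they cannot be told apart. The labels do not say what drives Foxr2 or the p53 deletion, how old the mice were, or whether 1 library stands for 1 animal or culture. The p-values therefore measure the spread between these libraries, which may be technical.

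AMPA, kainate and NMDA receptors are cation channels opened by glutamate, each built from 4 subunits, and they carry fast excitatory transmission. Delta receptors belong to the same family by sequence and act mainly as synaptic organizers. Metabotropic glutamate receptors signal through G proteins. GABA-A receptors are chloride channels built from 5 subunits, and GABA-B receptors are G protein-coupled pairs of 1 subunit of each kind. Neurons use all of these, and glia, among them oligodendrocyte precursors and astrocytes, are known to express a part of them.

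Libraries held 11300273 to 13927771 reads in OB, 12680832 to 15282668 in BS and 14987773 to 19868282 in AG. Values are reads divided by 1 size factor for each library, called normalized reads below. Foxr2 ran from 4505 to 6814 normalized reads in OB and from 7377 to 12567 in BS, against 1 read in all AG libraries together. Nf1 ran from 4184 to 8619.7 in OB and from 4642 to 6239 in BS, against 1334 to 1588 in AG, the group with the Nf1 shRNA. Trp53, with means of 33.5 in OB, 27.7 in BS and 27.3 in AG, was not called in either comparison with AG. It has 2 annotated transcripts, so its level cannot be read from these low values. Summed markers of several cell types differed between tumour cells and AG, but those of microglia overlapped, as did those of oligodendrocytes in BS. The summed level of the 6 markers of oligodendrocyte precursors was 40344 to 72013 in OB and 33881 to 80010 in BS, against 17.4 to 20.01 in AG, where Olig2 was at 0. Olig1 and Olig2, with means of 30775 and 23155, made up most of the BS sum. They and Cspg4 were called higher by limma in both tumour groups, and Sox10 and Gpr17 in OB alone. Pdgfra, with several annotated transcripts, was called in neither. The 8 neuronal markers in the table, of a list of 10, summed to 3951 to 9198 in OB and 3932 to 5802 in BS, against 1021 to 1061 in AG, where Snap25, Rbfox3 and Nefl were at 0. Neuronal markers did not move as one: limma called Elavl3 and Map2 higher in both tumour groups, Nefl in BS alone, and Tubb3 and Nefm in neither. Stmn2 averaged 1.64 in OB and 47.9 in BS, against 4.80 in AG. Snap25 and Rbfox3, with several annotated transcripts, averaged 0.725 and 0.952 in OB and 4.23 and 4.47 in BS. The 5 fibroblast markers summed to 9.95 to 121 in OB and 12.6 to 14.9 in BS, against 35642 to 46411 in AG, and the 3 markers of pericytes and smooth muscle in the table to 18.8 to 73.9 in OB and 8.39 to 40.4 in BS, against 52560 to 56003 in AG. Oligodendrocyte markers summed to 588 to 12901 in OB and 68.3 to 465 in BS, against 95.8 to 102 in AG, microglial markers to 68.5 to 81.8 and 32.0 to 103, against 59.2 to 71.0, and endothelial markers to 11.1 to 212 and 28.6 to 242, against 921 to 1035. Flt1, at 911 to 1027, made up nearly all of the endothelial sum in AG, where Cldn5 and Cdh5 were at 0. Kdr went the other way, with means of 99.3 in OB and 113 in BS against 9.51 in AG, and was not called. The 7 astrocyte markers in the table summed to 6723 to 29704 in OB and 14430.2 to 27617 in BS, against 5746 to 6288 in AG. They went different ways: Gja1 had 1.11, 662 and 395 normalized reads in OB and 2879, 369 and 1231 in BS, against 4961 to 5396 in AG, and was called lower in OB (adjusted p 0.0412 in limma). Slc1a3 had 88.4, 15575 and 23699 in OB and 11447 to 25665 in BS, against 753 to 855 in AG, and was not called, and S100b made up most of the sum of OB_257, at 6616. S100b was called higher in OB (adjusted p 0.0265 in limma) and not in BS. Aldoc was called higher in OB (0.00181) and in BS (0.00481). In AG Gfap reached 3.27 at most and Aqp4 1.97, but both have several annotated transcripts. The part of cell composition in the receptor differences was not tested, and in bulk RNA fewer cells of a type and less RNA per cell cannot be told apart.

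Genes with several annotated transcripts had low values throughout the table: the median row held 260.2 normalized reads where a gene had 1 transcript, 12.5 where it had 2 and 6.77 where it had at least 3. Reads that fit several transcripts appear to be missing. Of the 28 receptor genes, 16 have 1 annotated transcript and 12 have several, and low values of the 12 are not read as low expression.

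Tumour cells of both sites held some receptor genes at higher and others at lower levels than astroglia. Higher than in AG, in which they had 0 to 2 reads in all, stood the AMPA subunits Gria2 and Gria4, the GABA-A subunits Gabra2 and Gabrg1 and the GABA-B subunit Gabbr2, in OB as in BS. Lower stood the AMPA subunits Gria1 and Gria3, the NMDA subunits Grin2d and Grin3b and the GABA-A subunit Gabrd. Gria1 and Gria3 have several annotated transcripts, so their low tumour values are not read as low expression of the gene. Of the 28 genes, 19 passed the filter of 10 normalized reads in at least 3 libraries. In limma's test, at a Benjamini-Hochberg adjusted p under 0.05 over 10576 genes, 14 of the 19 were called in OB against AG, where 34.9% of all genes tested were called. Of these, 9 were higher and 5 lower in OB, where 16% of all genes were called higher and 19% lower. In BS against AG 14 of the 19 were called too, where 35.1% of all genes were called, and 9 were higher and 5 lower, where 15.6% of all genes were higher and 19.5% lower. The OB and BS comparisons share the AG libraries. The median difference over the 19 genes was 1.90 (log2) in OB against AG, beside -0.01 over all genes, and 4.17 in BS against AG, beside -0.03. With genes at 0 reads set to their bound both medians were the same. The middle gene of both comparisons, Grin2c, had reads in every group and no bound crossed it, so the bounds are no check of the medians. Since 11 of the 19 genes passed the filter only through tumour libraries and 3 only through AG libraries, these counts are a description. A gene that was at 0 in AG had to differ if it passed.

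**Figure D1:**
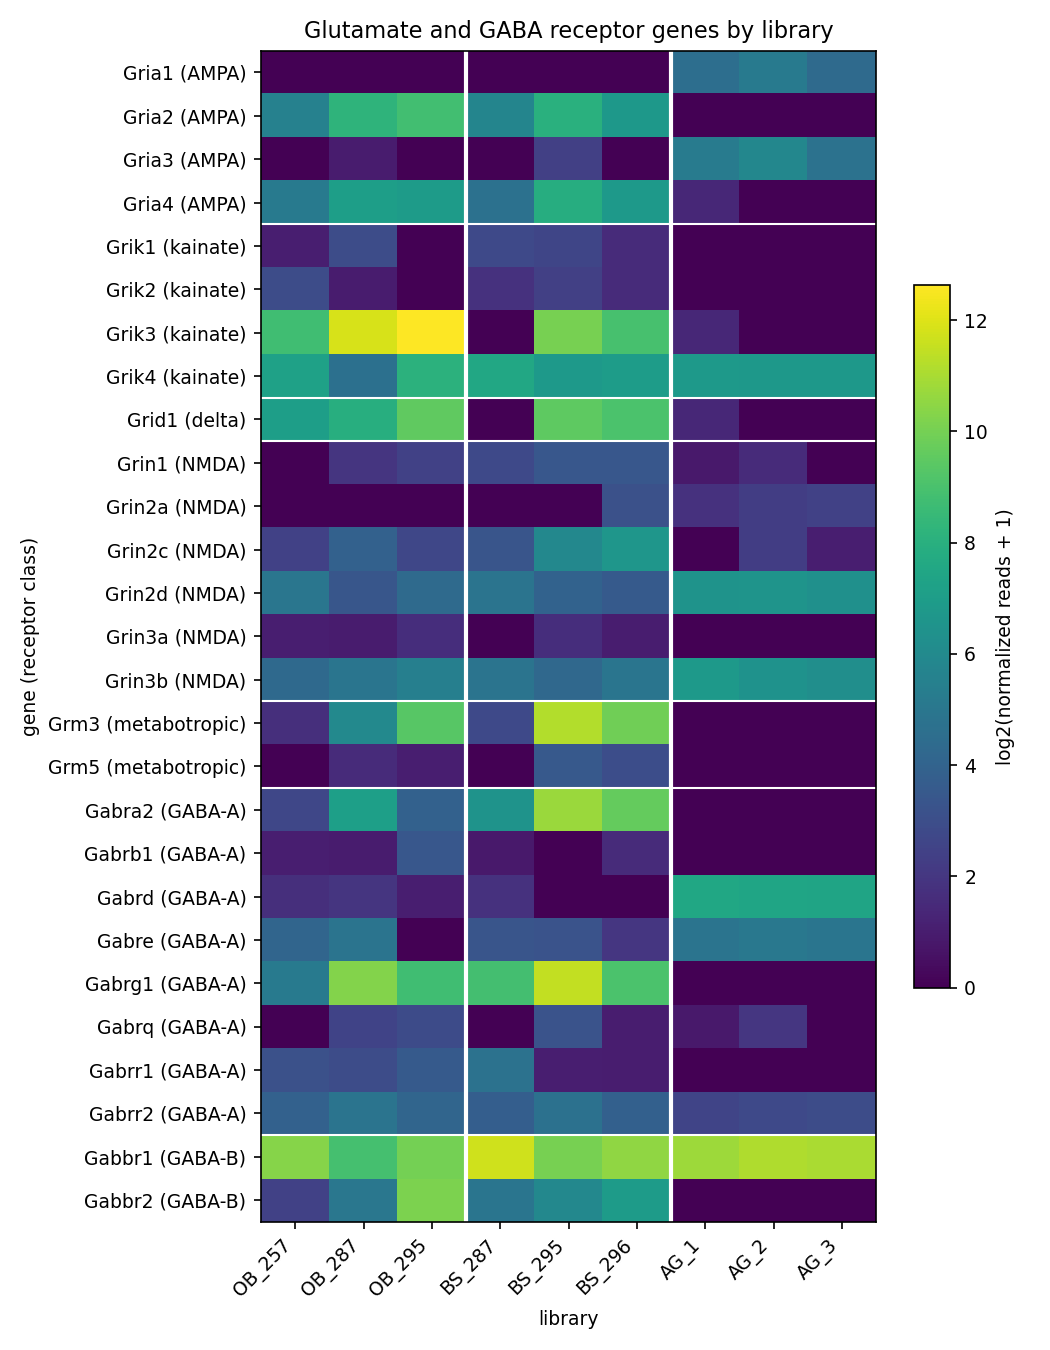
Level of the receptor genes (rows, by receptor class) in the 9 libraries (columns, OB, BS, AG), as log2(normalized reads + 1) on the colour scale. Gria2, Gria4, Gabra2, Gabrg1 and Gabbr2 have colour in OB and BS and are dark in AG, while Gria1, Gria3 and Gabrd show the opposite pattern. Grik3 and Grid1 are dark in BS_287.

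**Figure D2:**
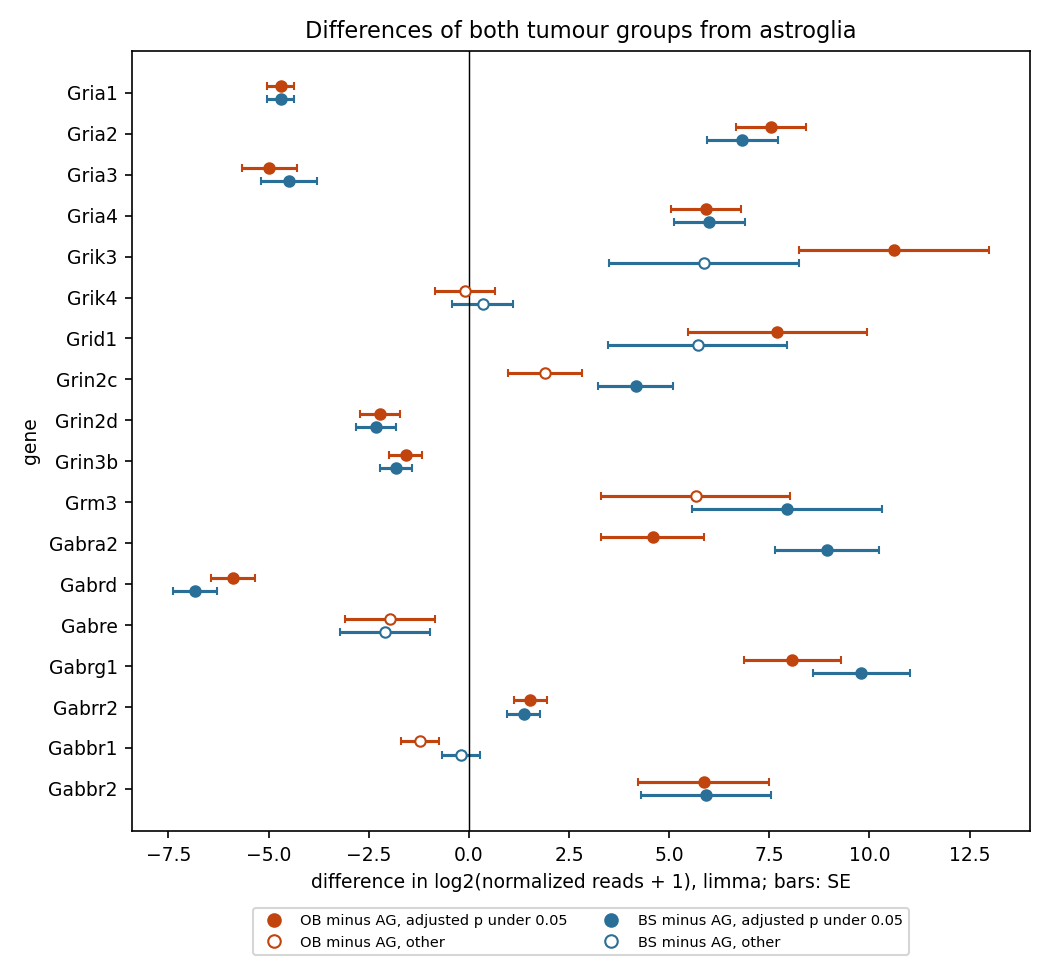
Difference from AG in log2(normalized reads + 1) for genes that passed the filter, OB minus AG above and BS minus AG below in each row, with bars for the SE of limma's fit (3 libraries per group). Filled points have an adjusted p under 0.05. Both tumour groups lie on the same side of 0 in all rows except Grik4, whose 2 values of -0.09 and 0.34 lie either side of it and are not called.

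The promoter sequences of 4 of the genes that were at or near 0 in AG are printed below. They show that receptor genes with higher means in both tumour groups than in AG begin in windows of very unlike base composition. Each is the 250 bases before the annotated start, 5′ to 3′ on the gene's strand, from RefSeq on GRCm38.p6 (the submitters' notes name mm9, another build), with CG dinucleotides in capitals. Grik3 lies at chr4:125490446-125490695 on the plus strand, Gria2 at chr3:80802836-80803085, Gabra2 at chr5:71095850-71096099 and Gabrg1 at chr5:70842618-70842867, all 3 on the minus strand. The first bases after the window were found in a GENCODE vM21 transcript of the same gene for Gria2, Gabra2 and Gabrg1. They were not found for Grik3, whose start rests on the RefSeq table alone.
Grik3: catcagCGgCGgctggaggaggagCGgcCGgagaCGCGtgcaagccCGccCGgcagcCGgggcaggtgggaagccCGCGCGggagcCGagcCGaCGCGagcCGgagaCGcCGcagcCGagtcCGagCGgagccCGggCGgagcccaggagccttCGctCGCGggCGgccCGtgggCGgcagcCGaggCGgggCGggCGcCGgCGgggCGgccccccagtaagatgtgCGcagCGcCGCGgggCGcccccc
Gria2: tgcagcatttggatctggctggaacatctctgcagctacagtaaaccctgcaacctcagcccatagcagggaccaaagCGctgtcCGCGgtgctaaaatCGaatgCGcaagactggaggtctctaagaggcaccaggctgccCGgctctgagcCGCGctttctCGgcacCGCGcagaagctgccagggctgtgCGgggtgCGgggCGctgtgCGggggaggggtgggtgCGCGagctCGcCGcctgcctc
Gabra2: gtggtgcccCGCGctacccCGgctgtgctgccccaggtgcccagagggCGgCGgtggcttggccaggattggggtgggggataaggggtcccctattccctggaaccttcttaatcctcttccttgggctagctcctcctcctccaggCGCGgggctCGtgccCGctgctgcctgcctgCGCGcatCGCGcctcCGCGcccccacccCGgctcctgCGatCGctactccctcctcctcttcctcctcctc
Gabrg1: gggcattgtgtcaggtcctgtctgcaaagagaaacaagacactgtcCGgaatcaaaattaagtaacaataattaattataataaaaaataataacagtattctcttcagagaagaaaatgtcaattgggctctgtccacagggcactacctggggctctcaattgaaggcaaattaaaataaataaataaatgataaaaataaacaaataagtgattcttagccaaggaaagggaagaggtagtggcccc
The Grik3 window was 82.0% G or C with 42 CG dinucleotides, the Gria2 window 64.8% with 19, and the Gabra2 window 70.0% with 18. That of Gabrg1, the next coding gene to Gabra2 on the chromosome, was 35.6% with 1. Over all 32851 windows the medians were 52.4% and 6, and over the 20 windows of the 19 receptor genes found in the promoter table they were 63.6% and 17.

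AMPA receptors are assembled from GluA1 to GluA4, the products of Gria1 to Gria4. Gria2 encodes the subunit whose RNA editing makes the channel impermeable to calcium. It had 46.4, 299 and 452 normalized reads in the OB libraries and 52.0, 260.3 and 105 in the BS libraries, against 0 in all AG libraries. All 6 tumour libraries lay above the AG libraries, and the 2 tumour groups overlapped. Against a floor of 3 reads per library, Gria2 was at least 91.4-fold higher in OB and at least 47.9-fold higher in BS than in AG. The differences in log2(normalized reads + 1) were 7.54 ± 0.87 in OB and 6.83 ± 0.87 in BS (SE, n = 3 per group), with adjusted p of 0.000317 and 0.000545 in limma. Fitted differences of genes at or near 0 depend on the pseudocount of 1, which the bounds do not. The bounds set a group mean against the floor, so a single high library can carry them.

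Gria4, a subunit of rapidly gating AMPA receptors, had 34.3, 134 and 123 normalized reads in OB and 25.2, 231 and 114 in BS, summed over its 3 transcript rows. In AG it had 2 reads, both in AG_1. The ratio of OB to AG was 155, with an exact 95% interval of 42.6 to 1288, and that of BS to AG was 181, with an interval of 49.7 to 1498. Both were called by limma, with adjusted p of 0.00122 in OB and 0.00116 in BS. Such intervals and floors cover counting error only.

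Gria1 encodes the subunit best known from activity-driven insertion of AMPA receptors into synapses. It had 0 reads in all OB and BS libraries, against 22.5, 34.5 and 19.6 normalized reads in AG. It was at least 8.12-fold lower in OB and at least 8.83-fold lower in BS than in AG, with adjusted p of 2.65e-05 and 2.43e-05 in limma. Gria3 had 0, 0.952 and 0 normalized reads in OB and 0, 4.27 and 0 in BS, against 37.5, 57.2 and 26.1 in AG. The ratio of reads showed Gria3 117-fold lower in OB than in AG (exact 95% interval 20.6 to 4641), and limma's difference was -4.50 ± 0.70 (SE, n = 3 per group) in BS, with adjusted p of 0.000885 in OB and 0.00153 in BS. No library of either tumour group reached the lowest AG value of either gene. Gria1 and Gria3 have 3 and 5 annotated transcripts with 1 row each in the table, and Gria2 has 8 with 1 row, so the rows may follow single isoforms. By the rows in the table, 2 of the 4 AMPA genes had higher and 2 had lower values in both tumour groups than in AG. Whether Gria1 and Gria3 as whole genes were lower cannot be read from these rows. Without any 1 of the AG libraries, Gria1, Gria3 and Gabrd no longer reached 10 normalized reads in 3 libraries and were not tested.

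**Figure D3:**
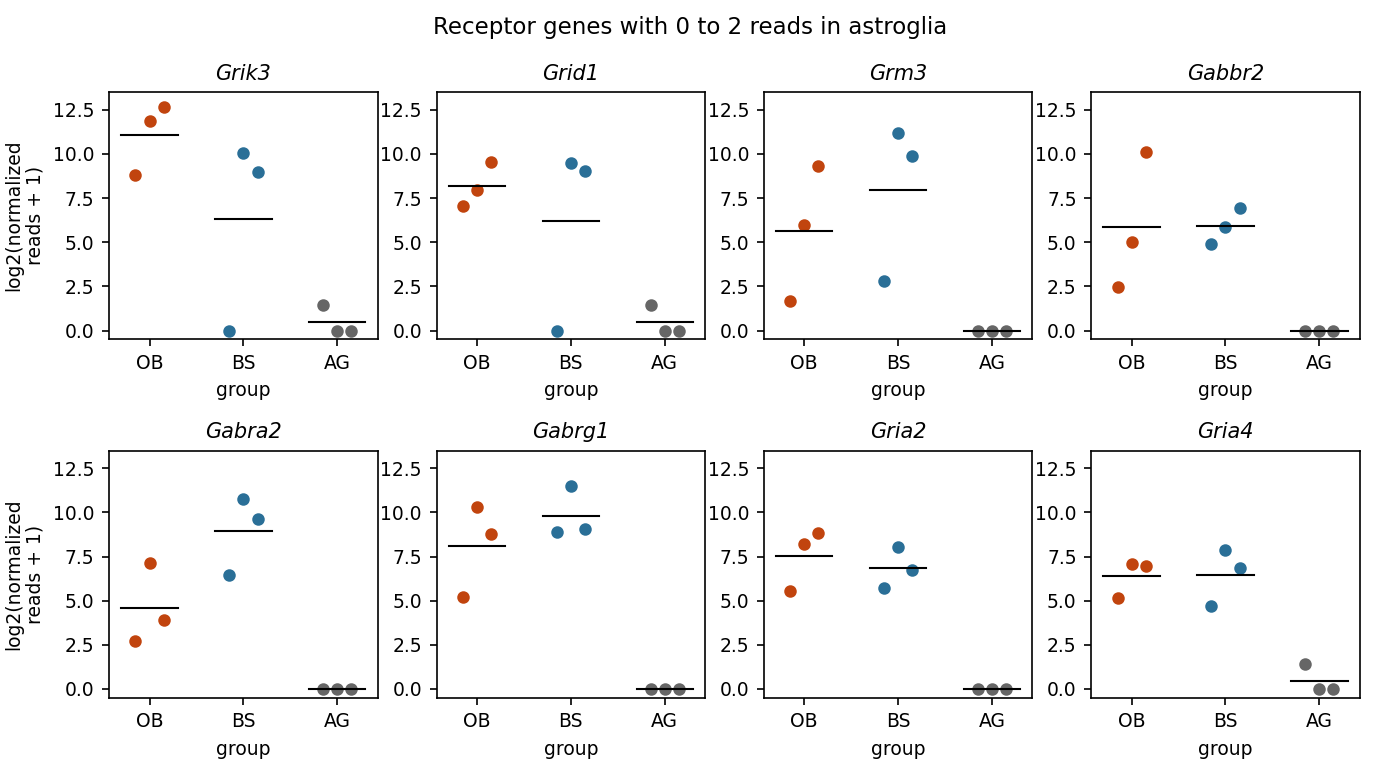
Level of 8 receptor genes in each library, as log2(normalized reads + 1), with OB, BS and AG from left to right in each panel. Each point is a library and each line the mean of 3. AG points lie at or near 0 in all panels, and the lowest BS point of Grik3 and of Grid1 is BS_287.

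Among kainate receptor genes Grik3, whose product GluK3 is a subunit of low glutamate affinity, had the highest single value of all receptor genes in the table, in OB_295. It had 438, 3691 and 6346 normalized reads in OB and 0, 1066 and 493 in BS. In AG it had 2 reads, both in AG_1. OB libraries lay above all AG libraries, while BS_287 lay with AG. The ratio of OB to AG was 5508 (exact 95% interval 1524 to 45485) and that of BS to AG was 746.5 (206 to 6170). In limma the OB difference was 10.61 ± 2.37 (SE, n = 3 per group) with an adjusted p of 0.00896, and the BS difference was 5.86 ± 2.37 with an adjusted p of 0.0874. Without BS_287 the BS difference was 9.03 and its adjusted p 0.00075. edgeR and DESeq2 on the recovered reads called it in BS with all libraries in, with adjusted p of 0.0193 and 0.00033.

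Grik4 encodes GluK4, a subunit of high affinity that forms channels only together with other kainate subunits. It had 149, 24.7 and 273 normalized reads in OB and 187, 109 and 126 in BS, against 113, 104 and 106 in AG. OB libraries lay on both sides of AG, and no difference from AG was called: the limma difference was -0.09 in OB (95% interval -1.82 to 1.63) and 0.34 in BS (-1.38 to 2.07). The sign of the OB value turned under upper-quartile rescaling (0.10), with edgeR (0.50), with DESeq2 (0.48) and without OB_287 (0.90). Grik1 and Grik2, with 3 annotated transcripts each, stayed under 10 normalized reads in every library and were at 0 in AG.

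Grid1 encodes the delta receptor GluD1. It had 133, 245 and 736 normalized reads in OB and 0, 717 and 530.1 in BS. In AG it had 2 reads, both in AG_1, where Grik3 and Gria4 also had their only AG reads. The ratio to AG was 574 in OB (exact 95% interval 159 to 4746) and 603 in BS (166 to 4982). The limma difference was 7.70 ± 2.22 (SE, n = 3 per group) in OB with an adjusted p of 0.0271, and 5.71 ± 2.22 in BS with an adjusted p of 0.0779. Without BS_287 the BS difference was 8.80 with an adjusted p of 0.000157. With all libraries in, edgeR and DESeq2 on the recovered reads called Grid1 in BS, with adjusted p of 0.0167 and 0.000281. The OB call was lost without any 1 AG library (adjusted p 0.0644 to 0.0852), without OB_287 (0.057) and without OB_295 (0.0797).

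NMDA receptors need the subunit of Grin1, joined by subunits of Grin2 or Grin3 genes that set their kinetics and calcium entry. Grin1 has 8 annotated transcripts and held at most 9.85 normalized reads in a library, so its level cannot be read from this table. Grin2d, the subunit of slowly decaying receptors, had 29.8, 9.52 and 19.6 normalized reads in OB and 28.5, 14.9 and 10.8 in BS, against 87.5, 92.6 and 80.6 in AG. All 6 tumour libraries lay below the AG libraries. The difference was -2.22 ± 0.50 in OB and -2.31 ± 0.50 in BS (SE, n = 3 per group), with adjusted p of 0.00926 and 0.00794 in limma.

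Grin3b, whose product lowers the calcium permeability of NMDA receptors, had 18.8, 29.5 and 43.5 normalized reads in OB and 28.5, 18.1 and 28.6 in BS, against 109, 85.7 and 74.0 in AG. Its groups did not overlap with AG, and the differences were -1.58 ± 0.40 in OB and -1.81 ± 0.40 in BS (SE, n = 3 per group), with adjusted p of 0.0160 and 0.00893 in limma. The OB call was lost without AG_1 (adjusted p 0.0770) and without AG_2 (0.0597). Grin3b overlaps Tmem259 on GRCm38, and since no source names the strand setting of the authors' counting, reads of the pair cannot be told apart. Tmem259 itself was not called.

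Grin2c, the NMDA subunit of cerebellar granule cells and of some glia, had 4.42, 14.3 and 5.43 normalized reads in OB and 9.23, 57.6 and 98.5 in BS, against 0, 3.94 and 1.09 in AG. All BS libraries lay above AG, and the BS difference of 4.17 ± 0.93 (SE, n = 3 per group) had an adjusted p of 0.00915 in limma. In OB the difference was 1.90 ± 0.93 and its adjusted p 0.147. Without BS_295, BS_296 or OB_287 the gene no longer passed the filter and was not tested. Grin2a and Grin3a did not pass it either: Grin2a was at 0 in OB, reached 7.88 in BS_296 alone among BS libraries, and ran from 2.501 to 4.36 in AG, and Grin3a stayed at 2.17 or under in every library.

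Grm3 encodes mGluR3, a receptor coupled to inhibitory G proteins and common in glia. It had 2.21, 60.9 and 647 normalized reads in OB and 5.87, 2311 and 941 in BS, against 0 in all AG libraries. The lowest values of each tumour group, in OB_257 and BS_287, were of a few reads only, and the other 4 libraries lay at least an order of magnitude above them. By group means, Grm3 was at least 81.3-fold higher in OB and at least 373-fold higher in BS than in AG. OB_257 by itself, at 2.21, lay under the AG floor of 2.91. The BS difference of 7.94 ± 2.37 (SE, n = 3 per group) was called, with an adjusted p of 0.0311 in limma, and the OB difference of 5.66 ± 2.37 was not, at 0.0963. Without OB_257 the OB difference was 7.65 with an adjusted p of 0.0338, and without BS_287, which narrows the shared spread, its adjusted p was 0.0306. The BS call was lost without any 1 AG library (adjusted p 0.0866 to 0.0881), without BS_295 (0.0934), without BS_296 (0.0969) and with a pseudocount of 5 (0.0589). DESeq2 called Grm3 in OB with all libraries in, at an adjusted p of 0.000282. Grm5, with 2 annotated transcripts, reached 1.90 in OB and 10.7 in BS and was at 0 in AG.

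Gabra2 and Gabrg1 encode the alpha-2 and gamma-1 subunits of GABA-A receptors and are neighbours on mouse chromosome 5. Gabra2 had 5.53, 139 and 14.1 normalized reads in OB and 88.1, 1703 and 790.2 in BS, against 0 in all AG libraries. Gabrg1 had 35.4, 1257 and 428 in OB and 470.5, 2826 and 526 in BS, against 0 in all AG libraries. For both genes OB_257 was the lowest OB library and OB_287 the highest, and BS_287 was the lowest BS library and BS_295 the highest. Gabra2 was at least 18.2-fold higher in OB and at least 295.8-fold higher in BS than in AG. The bounds for Gabrg1 were 197-fold in OB and 438-fold in BS. Limma called both genes in both groups: adjusted p was 0.0248 in OB and 0.00105 in BS for Gabra2, and 0.00126 in OB and 0.000454 in BS for Gabrg1. The OB call of Gabra2 was lost without any 1 AG library (adjusted p 0.0739 to 0.0750) without OB_287 (0.0586) and with a pseudocount of 5 (0.119), while Gabrg1 was called in both groups without any 1 library.

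Gabrd encodes the delta subunit of GABA-A receptors, found outside synapses, where it gives tonic inhibition. It had 2.21, 2.85 and 1.09 normalized reads in OB and 2.52, 0 and 0 in BS, against 183, 169 and 168 in AG. The AG libraries differed little among themselves, at 173 ± 8.86 (SD, n = 3), and lay far above all tumour libraries. The difference was -5.88 ± 0.54 in OB (adjusted p 9.73e-05 in limma) and -6.84 ± 0.54 in BS (4.11e-05), and the ratio of reads in BS showed it 182-fold lower than in AG (exact 95% interval 62.1 to 887). Gabrd overlaps Cfap74 on GRCm38, whose 3 group means of 139.5 in OB, 114 in BS and 105 in AG did not differ at the threshold, and reads of the pair cannot be told apart without the strand setting.

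**Figure D4:**
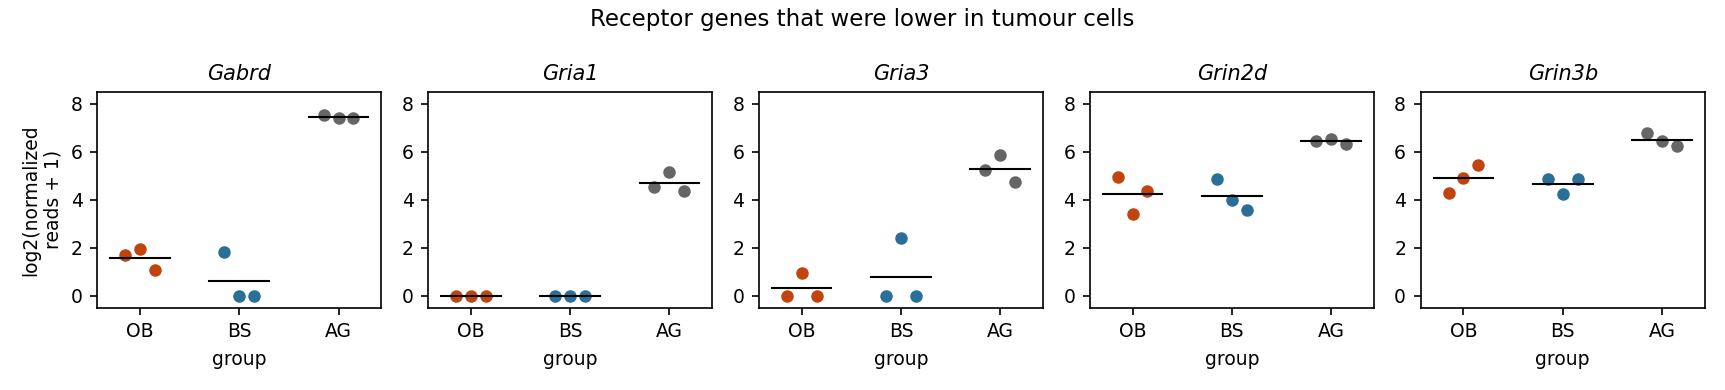
Level of the 5 receptor genes whose values were lower in both tumour groups, as log2(normalized reads + 1), with OB, BS and AG from left to right in each panel. Gria1 and Gria3 have several annotated transcripts. Each point is a library and each line the mean of 3. No tumour point reaches the lowest AG point in any panel.

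Among the other GABA-A genes, Gabrr2 encodes the rho-2 subunit, known from the retina, and had 14.4, 27.6 and 16.3 normalized reads in OB and 12.6, 25.6 and 13.8 in BS, against 5.003, 5.91 and 6.53 in AG. All tumour libraries lay above AG, and the differences of 1.53 ± 0.42 in OB and 1.37 ± 0.42 in BS (SE, n = 3 per group) had adjusted p of 0.0212 and 0.0339 in limma. Both calls rest on few reads. The OB call was lost without any 1 AG library (adjusted p 0.0717 to 0.0970) and without OB_287 (0.0546), and the BS call without any 1 AG library (0.0995 to 0.134), without BS_295 (0.0883), without BS_296 (0.0516) and under quantile normalization (0.0534). Gabre, the epsilon subunit, had 16.6, 27.6 and 0 in OB and 9.23, 8.53 and 2.96 in BS, against 28.3, 32.5 and 29.4 in AG, and its differences of -1.96 ± 1.12 in OB (adjusted p 0.206) and -2.09 ± 1.12 in BS (0.182) were not called. All 6 tumour values lay below the lowest AG value. In BS the gene was called without OB_295 (adjusted p 0.0124) and in a fit of BS and AG alone (0.0116). Gabrb1 and Gabrq, with 2 annotated transcripts each, did not pass the filter and reached at most 9.78 and 8.53 normalized reads. Gabrr1, the gene next to Gabrr2, ran from 6.66 to 10.9 in OB, reached 26.0 in BS_287 and was at 0 in AG, and did not pass the filter.

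A functional GABA-B receptor needs both the product of Gabbr1, which binds GABA, and that of Gabbr2, which couples to the G protein. Gabbr1 was well expressed everywhere, with 1307, 482 and 1020.5 normalized reads in OB and 3373, 1056 and 1492 in BS, against 1730.1, 2221 and 2114 in AG. All OB libraries lay below AG, but the difference of -1.22 ± 0.48 (SE, n = 3 per group) was not called, with an adjusted p of 0.0776 in limma. It was called without OB_257 (-1.52, adjusted p 0.0487), without BS_287 (adjusted p 0.0321) and in a fit of OB and AG alone (0.0451). In BS the difference was -0.20 (95% interval -1.29 to 0.88). Gabbr2 had 4.42, 31.4 and 1109 normalized reads in OB and 29.4, 57.6 and 123 in BS, against 0 in all AG libraries. One OB library, OB_295, held most of the OB reads. Gabbr2 was at least 131-fold higher in OB and at least 24.1-fold higher in BS than in AG, with adjusted p of 0.0233 and 0.0226 in limma. These calls were lost without any 1 AG library (adjusted p 0.0709 to 0.0718 in OB and 0.0696 to 0.0709 in BS) and with a pseudocount of 5 (0.0711 and 0.0816), and the BS call also without BS_295 (0.0536), without BS_296 (0.0719) and in edgeR (0.0564). DESeq2 gave Gabbr2 no adjusted p in either comparison with AG. Of the obligate pair, AG thus held reads of Gabbr1 alone.

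Levels of different genes were compared per kb of transcript, for the 16 genes with 1 annotated transcript. In OB the order was led by Grik3, at 389 ± 330 normalized reads per kb (SD, n = 3), followed by Gabbr1 at 178 ± 79.9 and Gabrg1 at 120 ± 131. In BS the leading genes were Gabbr1 at 376 ± 235, Grm3 at 356 ± 380 and Gabrg1 at 267 ± 282. In AG Gabbr1 led, at 385 ± 49.2, and was followed by Gabrd at 90.2 ± 4.61, Grin3b at 27.3 ± 5.46, Grik4 at 18.3 ± 0.82 and Grin2d at 16.01 ± 1.11. The neighbours in the tumour orders lie within each other's spread, whereas these 5 genes of the AG order are separated by more than their SDs.

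**Figure D5:**
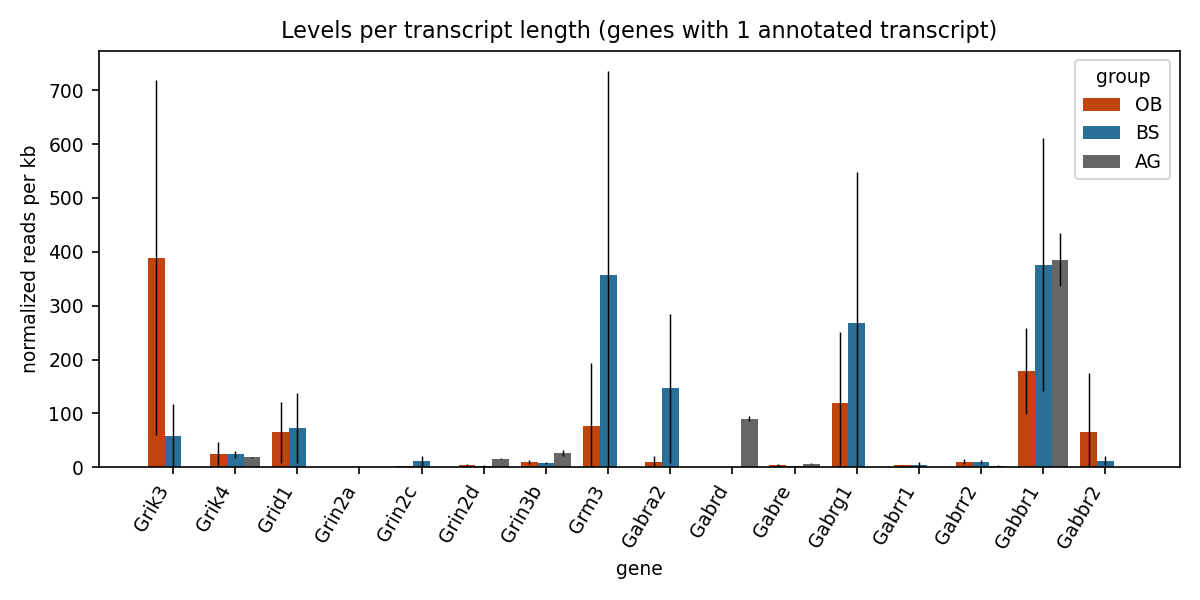
Mean normalized reads per kb of transcript for the 16 receptor genes with 1 annotated transcript, with OB, BS and AG bars from left to right for each gene. Error bars are SDs of 3 libraries. Grik3 leads in OB, Gabbr1, Grm3 and Gabrg1 in BS, and Gabbr1 and Gabrd in AG, and the tumour bars have wide errors.

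Between the tumours of both sites, OB against BS, 0 of the 19 genes were called by limma, where 0% of all genes were called. At an unadjusted p under 0.05 there were 2, Gabra2 and Grin2c, and edgeR and DESeq2 called 0 of the members, where edgeR called 0% of all genes and DESeq2 2.23%. Gabra2 was -4.36 ± 1.29 in OB against BS (SE, n = 3 per group, 95% interval -7.32 to -1.41), with an adjusted p of 0.358, and its groups overlapped through OB_287 and BS_287. Grin2c was -2.27 ± 0.93 (95% interval -4.39 to -0.14, adjusted p 0.487). The largest positive value was that of Grik3, at 4.75 ± 2.37 (95% interval -0.66 to 10.16, adjusted p 0.555). The groups overlapped in all 19 genes, where 9.99% of all genes did not. Those 9.99% were made up of 5.36% higher and 4.63% lower in OB. In OB against AG, 18 of the 19 genes did not overlap, where 58.3% of all genes did not: 11 were higher, against 27.5% of all genes, and 7 lower, against 30.8%. In BS against AG 15 did not overlap, where 58.4% of all genes did not: 9 were higher, against 26.7%, and 6 lower, against 31.8%. Intervals this wide leave differences of several-fold between the sites undetectable with these libraries.

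The tumour libraries differed among themselves in how many receptor genes they held. Of the 28 genes, 12, 15 and 15 reached 10 normalized reads in OB_257, OB_287 and OB_295, and 12, 16 and 15 in BS_287, BS_295 and BS_296, against 8 in each AG library. OB_257 and BS_287 also had the lowest summed level of oligodendrocyte precursor markers in their groups, at 40344 and 33881, though OB_287 was close to OB_257, at 42494. The single markers disagreed in OB_257. Olig1, Olig2, Cspg4 and Pdgfra were lowest there among OB libraries and Gpr17 lay between the others. Sox10 was highest there, at 30528 against 1808 in OB_287 and 13223 in OB_295. The part of these marker levels in the low values of Grm3, Gabra2, Grik3 and Grid1 was not tested. With both left out, a choice made after seeing the data, limma called 17 of the receptor genes in the comparison of OB with AG, 16 in that of BS with AG, and 0 between OB and BS. In the same fit limma called 45.4% of all genes between OB and AG, 45.6% between BS and AG and 0.614% between OB and BS, so the calls grew over all genes as well. The genes added were Gabbr1, Grin2c and Grm3 in OB, and Grid1 and Grik3 in BS.

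Genes of proteins that accompany these receptors were called in both directions. Auxiliary subunits of AMPA and kainate receptors control their trafficking and gating, and 5 of the 13 listed genes were tested. Of these, 1 was higher in OB and 3 in BS than in AG and none was lower, where 16% of all genes were called higher in OB and 15.6% in BS. Cacng4, an auxiliary subunit of the TARP family, had 237, 539.6 and 824 normalized reads in OB and 205, 1019 and 520.2 in BS, against 0.834, 0 and 2.18 in AG. Its difference was 8.04 ± 0.72 in OB and 8.05 ± 0.72 in BS (SE, n = 3 per group), with adjusted p of 7.86e-05 and 7.46e-05 in limma. Neto1, a kainate receptor partner, and Cacng7 were higher in BS, by 5.06 (adjusted p 0.0403) and 0.82 (0.0248). The list's median difference was 0.56 in OB and 2.78 in BS, beside the -0.01 and -0.03 over all genes.

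Of 20 genes for scaffolds and RNA editing of glutamate receptors, 7 were tested. Shank3 and Shank1, scaffolds of the postsynaptic density, were higher, by 4.62 and 3.63 in OB and by 5.27 and 3.10 in BS (log2, adjusted p 5.59e-05 to 0.000554 in limma). Pick1, which binds AMPA subunits, was higher in OB, by 2.65 (adjusted p 0.0143). Dlg3, the scaffold SAP102, was lower, at -3.32 in OB and -3.13 in BS (adjusted p 0.0118 and 0.0155), though it has 5 annotated transcripts. The list's median was 1.04 in OB and 0.52 in BS.

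Among 14 partners of GABA receptors, 10 were tested. Lhfpl4, which places GABA-A receptors at inhibitory synapses, had 3264, 822 and 2401 normalized reads in OB and 2589, 1603 and 2161 in BS, against 170.1, 161 and 136 in AG, a difference of 3.58 ± 0.46 in OB and 3.74 ± 0.46 in BS (SE, n = 3 per group, adjusted p 0.000584 and 0.000446 in limma). Nlgn2, the adhesion protein of inhibitory synapses, was higher by 1.08 in OB and 1.07 in BS (adjusted p 0.0154 and 0.0163). Trak1, a transport adaptor, was higher in BS, by 1.52 (0.0274). Kctd12, an auxiliary subunit of GABA-B receptors, was lower, at -3.18 in OB and -1.73 in BS (0.000275 and 0.00659). Slc12a2, the chloride importer NKCC1, was lower in BS, at -1.26 (0.00531). The list's median was 0.02 in OB and 0.34 in BS.

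Genes for handling the transmitters were mostly higher where they were called. Of 14 genes of glutamate uptake, release and metabolism 9 were tested, and 3 were higher and 0 lower in each tumour group, where 16% of all genes were higher and 19% lower in OB, and 15.6% higher and 19.5% lower in BS. Slc1a1, the glutamate transporter EAAC1, had 1566, 266 and 5558 normalized reads in OB and 22.6, 354 and 382 in BS, against 2.501, 5.91 and 0 in AG. Its difference was 8.84 in OB and 5.67 in BS (adjusted p 0.00164 and 0.0144 in limma). Glul, glutamine synthetase, was higher by 2.22 in OB and 1.23 in BS (0.00225 and 0.0330), and Slc1a4, a neutral amino acid transporter, by 1.58 and 1.30 (0.00536 and 0.0135). The list's median was 1.58 in OB and 0.66 in BS.

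Of 11 genes of GABA synthesis, uptake and metabolism 8 were tested, and 3 were higher and 1 lower in OB, and 4 were higher and 1 lower in BS, beside the same shares of all genes. Both genes of glutamate decarboxylase, which makes GABA, were called in opposite directions. Gad1 had 4.42, 114 and 21.7 normalized reads in OB and 5.87, 175 and 61.1 in BS, against 0 in all AG libraries, with adjusted p of 0.0269 in OB and 0.0140 in BS in limma. Gad2 had 1.11, 2.85 and 0 in OB and 0, 0 and 31.5 in BS, against 50.9, 59.1 and 52.3 in AG, with adjusted p of 0.0182 and 0.0338. The degradation enzymes Abat and Aldh5a1 were higher by 3.19 and 2.90 in OB and by 2.79 and 3.20 in BS (adjusted p 0.000131 to 0.000274). The list's median was 3.05 in OB and 2.996 in BS. None of the genes tested in these 5 lists was called in OB against BS, where limma called 0% of all genes.

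The 250-base promoter windows were searched on both strands for 7 short motifs, which do not overlap one another as letters. A forkhead core, GTAAACA, was in 3.17% of the 32851 windows and, among the receptor genes, in that of Gabrr1. The E-box CAGCTG was in 13.0% of all windows and in none of the receptor genes', and the E-box CAGATG was in 14.4% and in those of Gabrr1 and Grin3b. AACAAT, a SOX core, was in 9.42% and in those of Gabrg1, at -187 from the start, and Gabrb1. Of the left and right parts of the RE1 element, CAGCACC was in 5.73% and in that of Gabrq, and GGACAGC was in 5.28% and in that of Gria2, at -171 from the start. TATAAA was in 12.4% and in that of Grin3b. These are matches of letters in the windows and say nothing of binding.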

How the data were processed

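Per the labels' protocols, the 9 libraries were prepared from total RNA with a TruSeq kit that keeps the strand. The deposited table holds signal values, reads divided by 1 size factor per library (0.905 to 1.20), for 16260 RefSeq transcripts. Per the submitters' processing notes, the tools were HISAT2 2.1.0, DESeq2 1.20.0, bcl2fastq 1.8.4 and featureCounts from Subread 1.6.2, and the build was mm9. Neither the strand setting nor the handling of shared reads is given in the sources used here. With the factor undone, 100% of values were whole reads within 0.05 reads.

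Symbols came from RefSeq (16202 rows) or GENCODE (41), rows of 1 symbol were summed, and 17 rows without a symbol were left out. Genes with 10 normalized reads in at least 3 libraries were tested by limma 3.58.1, run in R 4.3.3. The fit took log2(value + 1) in all 9 libraries at once, with a mean per group, a variance trend, two-sided tests and Benjamini-Hochberg adjustment over 10576 genes. The method was tested on simulated reads. The members, partner lists and markers were chosen with earlier results of these data known. Values in every library are given for the members reported that were called or had a group mean of at least 50 normalized reads, and up to 4 called genes per list and comparison are named. Alternatives were pseudocounts, filters, rescaling, quantile normalization, variance models, the highest transcript row, fits of the compared groups only, each library left out, the title number as a block, and count tests on the recovered reads with DESeq2 1.42.0 and edgeR 4.0.16, which called 14 and 14 members in OB against AG (41.1% and 35.2% of all genes) and 15 and 15 in BS against AG (41.0% and 34.8%). Transcript lengths came from GENCODE vM21. Some items are not reported here.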

Additional observations from a re-analysis of the deposited data

How the results depend on the processing

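No called difference of a receptor gene from AG turned its sign under any alternative that was run. Between the tumour sites no receptor gene was called under any setting, so there was no call to turn. There 41 of 438 values changed sign. Of 1276 values, 1169 kept sign and side of the threshold, 39 lost a call, 19 gained one and 49 changed sign with no call on either side. With a filter of 50 normalized reads the count of lower genes was 3 in OB and 3 in BS against AG, since Gria1 and Gria3 were then not tested. Over the 9 settings that left out 1 library, higher genes numbered 5 to 10 in OB and 5 to 11 in BS, and lower genes 1 to 6 in OB and 2 to 6 in BS, with the lowest of the lower counts without an AG library. Upper-quartile rescaling moved the median of all genes to 0.18 in both comparisons with AG and the split of all genes to 2158 higher and 1675 lower in OB (1687 and 2008 as deposited) and 2135 and 1674 in BS (1652 and 2060), and changed no call of a receptor gene. Some title numbers recur without an explanation (OB_287 with BS_287, OB_295 with BS_295). Deviations of the same-numbered libraries correlated at 0.07 and 0.30, and those of the other OB and BS pairs at -0.41 to 0.29. With the number as a replicate block 0 receptor genes were called in OB against BS, as without it. Depth limits genes of a few reads, and missing shared reads limit genes with several transcripts.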
